A study of Homo sapiens with 8 samples.

Results

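The genes described here are the p53 family members TP63 and TP73 and 29 genes known as targets or feedback regulators of p53, 31 in all. They were followed in H1299, a human line grown from a non-small cell lung carcinoma and known to lack p53. Their probe sets were taken by name: every probe set whose platform annotation gives a single gene symbol equal to a listed gene. This found 94 probe sets for 28 of the 31 genes, out of 49293 probe sets and 18132 named genes on the arrays. TP63, FDXR and BTG2 had no such probe set, so their RNA was not analysed here.

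RNA was measured on 8 Affymetrix arrays in 2 sets. In the first set, 3 arrays of H1299 cells transfected with short hairpin RNA (shRNA) against USF1 were compared with 3 arrays of their controls. The second set held 1 array of cells given shRNA against UGT1A3 and 1 array of its control. USF1 is a transcription factor that binds the E-box CACGTG, and UGT1A3 is an enzyme that attaches glucuronic acid to lipophilic compounds. All 8 arrays are of the same line. The titles and genotype labels mark each array as a knockdown or its control, and groups were taken from the titles. The free-text description, however, is the same on the control and knockdown arrays of a set and says of both that the cells received shRNA against the target. What the controls received is therefore unclear from the labels, which give neither the hairpin sequences nor the time after transfection. The median log2 intensity was 6.53 to 6.55 on the USF1 arrays and 5.59 and 5.63 on the UGT1A3 arrays. Each knockdown was set against its own controls and no others. Nothing in the labels says that replicates came from separate cultures, and p-values then reflect the spread of these arrays alone, which may be technical. The number of arrays limits the precision.

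p53 is a transcription factor that responds to DNA damage and other stresses by switching on genes that stop the cell cycle, repair DNA, kill the cell or restrain p53 itself. Its relatives p63 and p73 recognise much the same DNA element. Many of the same genes are also driven without p53: GADD45A and PMAIP1 by the stress factor ATF4, BBC3 and SESN1 by FOXO factors, CDKN1A by SMAD and KLF factors, and TP73 by E2F1. In a line that lacks p53, their levels may reflect such other inputs, p63 and p73, or RNA stability. Which of these acts on the levels measured here was not tested.

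The targeted gene was checked first. USF1 read 6.31, 6.55 and 6.42 in the controls and 6.06, 5.88 and 6.13 after knockdown, a fall of 0.40 (SE 0.08, n = 3 against 3, limma adjusted p = 0.00818). That fall rests on 1 probe set, with means of 6.43 and 6.03, not far above the dim limit of 5.63 defined below. Every probe set annotated with UGT1A3 is shared with other UGT1A genes, so the second knockdown was not checked in this way. USF1 itself read 4.73 and 4.98 on the control and knockdown arrays of that pair. Of the epithelial markers, KRT8 and KRT18 were well measured, with control means of 9.07 and 12.8, whereas KRT19, EPCAM and CDH1 were dim. Dim here means below a limit set at percentile 40 of the probe set means, which was 5.63 for the USF1 set and 4.76 for the UGT1A3 pair. The leukocyte marker PTPRC (control mean 3.28), the endothelial marker CDH5 (4.85) and the fibroblast marker COL1A1 (5.35) lay under it too. Other markers of these lists were above it: CD68 for leukocytes (9.46), PDGFRB for fibroblasts (5.90), PECAM1 and VWF for endothelium (both 5.64) and 4 of 5 alveolar markers (6.40 to 6.91). Of 2 tested epithelial markers 1 passed, KRT8, which rose by 0.25 (limma adjusted p = 0.00197), and the summed epithelial level was 12.88 to 12.96 in the controls and 12.95 to 13.0 after knockdown. None of the tested fibroblast (1), leukocyte (1), endothelial (2) or alveolar (4) markers passed. The part of KRT8 in the results was not tested. On RNA of whole cultures, fewer cells of a kind and less RNA per cell cannot be told apart.

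After USF1 knockdown, 10 of the 27 genes bright enough to be tested rose, 5 fell and 12 did not pass an adjusted p of 0.05. The rises were led by TP53INP1 and CD82, at 182% and 179% of control, and by SESN1 at 152%. The falls were smaller, between 82.3% and 86.8% of control, and comprised POLK, GADD45A, MDM4, PMAIP1 and AEN. These counts stand on a broad response: 40.7% of all 11448 tested genes passed, 22.0% upward and 18.7% downward. Of the tested members 55.6% passed, 37.0% upward and 18.5% downward, so the share that fell was about that of all genes. The median change was 0.07 over the members and 0.01 over all tested genes, and the median size of change was 0.17 and 0.10. Among the tested members 59.3% had their 3 knockdown arrays wholly above or below the 3 controls, against 53.6% of all tested genes. All 15 members that passed were among them. This adds no support, since passing and separation are read from the same values. Changes of at least 1.5-fold that also passed made up 1.69% of all genes, and rises of that size 0.507%. Among the members there were 3 such rises and no such fall. Changes are log2 differences, knockdown minus control, for each gene's brightest probe set.

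**Figure D1:**
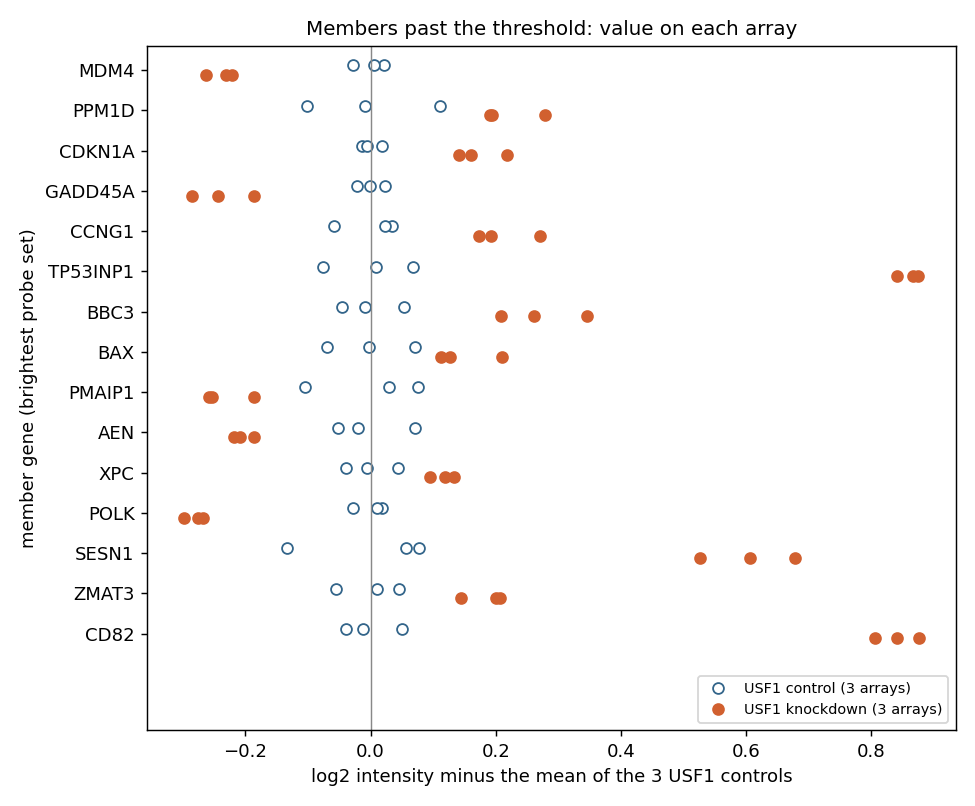
Log2 intensity on each of the 6 USF1 arrays (x axis, minus the mean of the 3 controls) for the 15 members past the threshold (y axis), with controls as open and knockdown arrays as filled circles. The knockdown circles of all 15 genes lie clear of the control circles, at about 0.8 to 0.9 for TP53INP1 and CD82 and within 0.35 of 0 for the others except SESN1.

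The p53 family itself gave little signal. TP73, the only family member measured, read 6.53, 6.49 and 6.71 in the controls and 6.50, 6.34 and 6.81 after knockdown. The groups overlapped, and the change of -0.03 had a 95% interval from -0.32 to 0.26 (limma adjusted p = 0.869), the widest interval of the members. None of its 4 bright probe sets passed, and the other 5 of its 9 lay under the dim limit.

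Among the feedback regulators, which hold p53 in check, MDM4 fell, PPM1D rose and MDM2 did not pass. MDM4, a p53-binding relative of MDM2, read 8.05, 8.03 and 8.0 in the controls and 7.76, 7.81 and 7.80 after knockdown. It fell by 0.24 (SE 0.03, limma adjusted p = 0.00102), and its 4 bright probe sets ran from -0.42 to -0.21, of which 3 passed. PPM1D, the WIP1 phosphatase that resets the damage response, read 8.65, 8.53 and 8.44 and then 8.73, 8.73 and 8.82. It rose by 0.22 (SE 0.06, limma adjusted p = 0.0216), but on 1 of its 4 bright probe sets only, the others lying between -0.06 and 0.08. The PPM1D call was lost without control 2, control 3 or knockdown 3, at adjusted p-values of 0.0649, 0.0558 and 0.0573, and when its probe sets were averaged, where the change was 0.06. MDM2, the ubiquitin ligase of p53 and a classical p53 target, read 8.85, 8.90 and 8.93 in the controls and 8.87, 8.89 and 8.91 after knockdown. Its groups overlapped and its change of -0.01 had a 95% interval from -0.08 to 0.07. Of its 8 bright probe sets, 1 passed, at 0.12.

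Of the 6 measured genes of cell cycle and growth arrest, 2 rose, 1 fell and 3 did not pass. CDKN1A, which encodes the cyclin-dependent kinase inhibitor p21, read 11.51, 11.54 and 11.52 in the controls and 11.74, 11.68 and 11.66 after knockdown. It rose by 0.17 (SE 0.03, limma adjusted p = 0.00516), while its second probe set changed by 0.09 and did not pass. CCNG1, a cyclin that recruits a phosphatase to MDM2, read 11.36, 11.26 and 11.34 and then 11.49, 11.59 and 11.51. It rose by 0.21 (SE 0.04, limma adjusted p = 0.00629), and all 5 of its probe sets passed upward, from 0.21 to 0.31. GADD45A, a stress sensor that promotes arrest and repair, read 11.97, 11.92 and 11.94 in the controls and 11.70, 11.76 and 11.66 after knockdown. It fell by 0.24 (SE 0.03, limma adjusted p = 0.00214) on its single probe set, so it moved against CDKN1A and CCNG1.

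GADD45B, the related sensor, changed by 0.07 (95% interval -0.03 to 0.17), and 1 of its 4 probe sets passed, at 0.20. The polo-like kinase genes PLK2 and PLK3 changed by 0.09 and -0.03. For PLK2 the brightest probe set did not pass, but the other 3 did, at 0.19 to 0.21, and the mean of all 4 rose by 0.17 (limma adjusted p = 0.0104).

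Of the 8 genes of cell death, 3 rose, 2 fell and 3 did not pass. TP53INP1, which promotes apoptosis and autophagy, read 9.21, 9.27 and 9.13 in the controls and 10.07, 10.08 and 10.05 after knockdown. It rose by 0.86 (SE 0.04, limma adjusted p = 4.09e-05), the largest change of the members. That rise was carried by 1 probe set. Its second probe set lay under the dim limit, with a change of 0.05, so the mean of both gave 0.46. BBC3, the BH3-only protein PUMA, read 7.93, 7.97 and 8.03 and then 8.32, 8.19 and 8.24. It rose by 0.27 (SE 0.05, limma adjusted p = 0.00367), and both its probe sets passed. PMAIP1, the BH3-only protein NOXA, went the other way, from 9.73, 9.68 and 9.54 to 9.39, 9.46 and 9.40. It fell by 0.23 (SE 0.05, limma adjusted p = 0.0115), and its second probe set fell by 0.36.

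BAX, the pore-forming protein that BH3-only proteins release, read 9.11, 9.26 and 9.18 in the controls and 9.30, 9.39 and 9.31 after knockdown. It rose by 0.15 (SE 0.05, limma adjusted p = 0.0397). This call was the weakest of the members: it was lost without control 1, control 3 or any of the 3 knockdown arrays, at adjusted p-values of 0.0601 to 0.117, and held only without control 2. Its second probe set changed by -0.11, so the mean of both was 0.02. AEN, a nuclease of apoptotic cells, read 7.76, 7.89 and 7.79 and then 7.63, 7.60 and 7.61, a fall of 0.20 (SE 0.04, limma adjusted p = 0.00596) on its only probe set. The death receptor genes FAS and TNFRSF10B changed by 0.10 (95% interval -0.01 to 0.20) and 0.03 (-0.07 to 0.12). PHLDA3, an inhibitor of AKT, read 5.93, 5.99 and 5.81 and then 6.26, 5.94 and 6.29, near the dim limit. Its change of 0.25 did not pass (limma adjusted p = 0.0755), and knockdown 2 read like a control. Without that array the change was 0.36 (limma adjusted p = 0.00462), whereas without any of the other 5 arrays it did not pass (adjusted p up to 0.206).

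Of the 4 genes of DNA repair and nucleotide supply, POLK fell, XPC rose, and DDB2 and RRM2B did not pass. POLK, a translesion DNA polymerase, read 8.38, 8.34 and 8.37 in the controls and 8.10, 8.09 and 8.07 after knockdown. It fell by 0.28 (SE 0.03, limma adjusted p = 4.94e-04), and its 3 bright probe sets all passed, from -0.55 to -0.28. XPC, which finds damage for nucleotide excision repair, read 8.72, 8.68 and 8.76 and then 8.84, 8.85 and 8.82. It rose by 0.12 (SE 0.03, limma adjusted p = 0.0273), the smallest change that passed. The XPC call was lost without control 1, control 2, knockdown 1 or knockdown 2, at adjusted p-values of 0.0682 to 0.0863. DDB2, its partner in recognising ultraviolet damage, changed by 0.07 (95% interval -0.03 to 0.17). RRM2B, a ribonucleotide reductase subunit, changed by -0.06 on its brightest probe set, while all 9 of its probe sets lay below 0, down to -0.23, and 2 of them passed. The mean of the 9 fell by 0.15 (limma adjusted p = 0.0202).

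Among genes of metabolism and mitochondria, SESN1 stood out. SESN1, a sestrin that restrains the growth kinase complex mTORC1, read 7.91, 7.93 and 7.72 in the controls and 8.38, 8.53 and 8.46 after knockdown. It rose by 0.60 (SE 0.07, limma adjusted p = 7.06e-04), and its second probe set rose by 0.48. TIGAR, a sugar phosphatase that lowers glycolysis, changed by -0.07 (95% interval -0.16 to 0.02), with its second probe set at 0.13. TRIAP1, a mitochondrial lipid-transfer subunit, read 10.52, 10.54 and 10.54 and then 10.59, 10.60 and 10.58. Its groups did not overlap, yet the change of 0.06 did not pass (limma adjusted p = 0.109). SPATA18, a mitochondrial quality-control gene, was dim on all 3 of its probe sets, with a control mean of 3.69 for the brightest.

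The remaining targets both rose. CD82, a tetraspanin known to restrain cell migration, read 8.58, 8.49 and 8.52 in the controls and 9.40, 9.37 and 9.33 after knockdown. It rose by 0.84 (SE 0.04, limma adjusted p = 3.18e-05). Its 2 probe sets read within 0.022 of each other on every USF1 array, so they give nearly the same measurement and not independent ones. ZMAT3, an RNA-binding zinc-finger protein, read 8.25, 8.21 and 8.15 and then 8.40, 8.41 and 8.35, a rise of 0.18 (SE 0.04, limma adjusted p = 0.0076).

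Taken probe set by probe set, 76 of the 94 were bright enough to be tested, of which 22 rose, 12 fell and 42 did not pass. That is 28.9% upward and 15.8% downward, against 20.0% and 17.6% of all 27182 bright probe sets. Among the 15 genes that passed, 12 had more than 1 bright probe set. In 10 of these 12 all bright probe sets moved the same way, the exceptions being BAX and PPM1D, and in 6 all of them passed. Probe sets of the same gene share its transcripts and are not replicates.

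**Figure D2:**
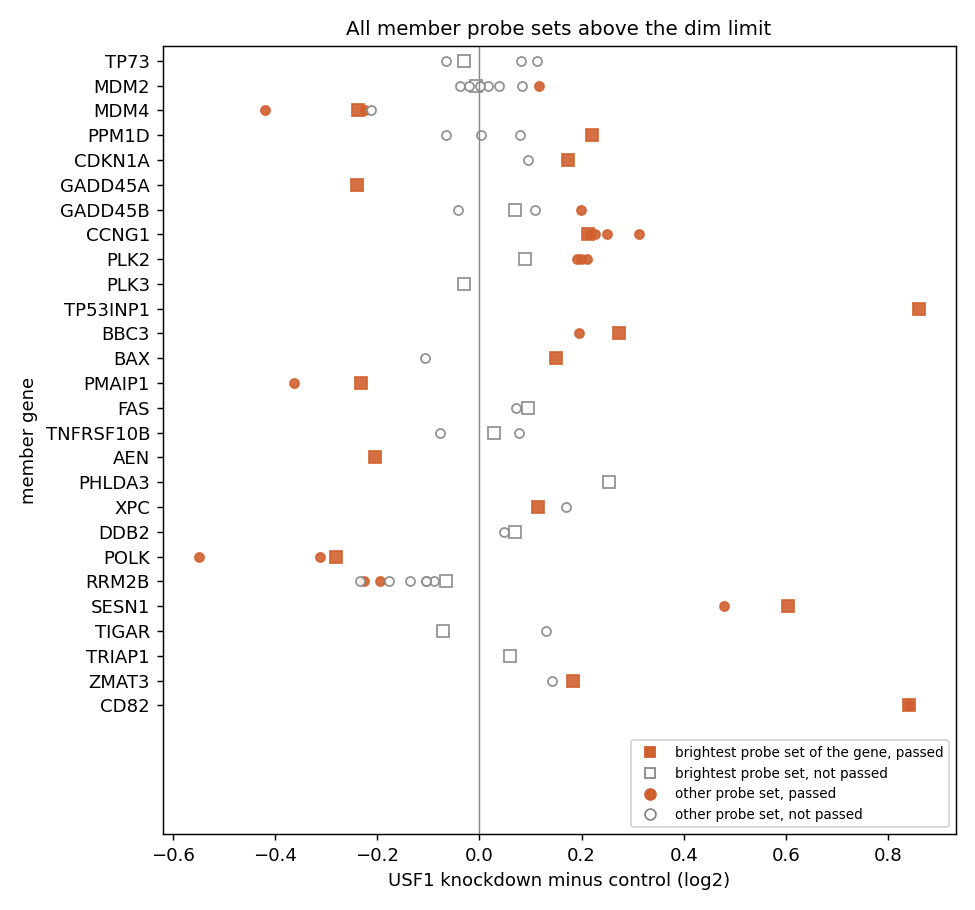
Change after USF1 knockdown (x axis, log2) of each of the 76 bright member probe sets, by gene (y axis). Squares mark the brightest probe set of a gene and circles the others, filled where the probe set passed. The probe sets of CCNG1, POLK, SESN1 and RRM2B lie on a single side of 0, whereas those of BAX, PPM1D, GADD45B and TIGAR lie on both.

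The upstream sequences of the members were read for the E-box that USF1 binds, since USF1 was the gene knocked down. RefSeq promoter windows (GRCh38.p14) were matched by symbol for 26 of the 31 genes, and the 250 bases before each start site were searched. The 26 genes had 39 windows, since some have several start sites, and a gene was counted if any of its windows held the motif. CACGTG was found for 4 of the 26, namely BAX, BBC3, GADD45B and TP73, and for 7.73% of all 27305 genes with a window (11.5% of the tested ones). BAX and BBC3 rose after USF1 knockdown, and GADD45B and TP73 did not pass. The BAX call was lost in 5 of the 6 fits with an array left out, and its second probe set changed by -0.11. Whether the E-box bears on any of these changes was not tested. BAX held 4 copies within 138 bases of its start, a number reached in 5 of 35116 windows. The stretches are shown 5′ to 3′ on the strand of the gene, with CACGTG, which reads the same on both strands, in capitals:
BAX (chr19:48954697-48954874, + strand): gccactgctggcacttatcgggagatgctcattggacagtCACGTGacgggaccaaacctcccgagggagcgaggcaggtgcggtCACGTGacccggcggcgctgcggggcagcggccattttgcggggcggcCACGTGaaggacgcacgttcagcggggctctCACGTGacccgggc
BBC3 (chr19:47232854-47232917, - strand): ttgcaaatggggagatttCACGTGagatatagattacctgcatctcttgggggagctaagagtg
GADD45B (chr19:2475919-2476004, + strand): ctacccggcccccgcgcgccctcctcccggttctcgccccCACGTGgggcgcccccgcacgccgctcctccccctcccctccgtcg
TP73 (chr1:3697952-3698037, + strand): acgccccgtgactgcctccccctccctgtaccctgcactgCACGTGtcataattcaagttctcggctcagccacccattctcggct

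In BAX the copies begin 138, 93, 45 and 14 bases before the start site. In BBC3, GADD45B and TP73 the single copy begins 232, 168 and 54 bases before it. Each distance is to the start site of the window shown, which need not be the main start of the gene. Among the members with a window, CD82 and SESN1 changed most and held no CACGTG in the bases searched, which says only that these letters are not in them. TP53INP1 had no window.

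The same windows were searched, on both strands, for elements of other inputs. The decamer that p53, p63 and p73 bind as a repeat was found for 5 of the 26 genes, namely AEN, FAS, FDXR, PLK2 and SESN1, and for 6.80% of all genes with a window (6.41% of the tested ones). FDXR is counted by its sequence alone, as it had no probe set. Single decamers were searched for, not the repeat. The members were listed as p53 targets, so a higher share than over all genes could be foreseen and is no result. The ATF4 element TGATGNAA was found for 1 gene, PLK3, against 3.89% of all genes, and the FOXO element TGTTTAC for none, against 3.66%. Absence says only that these letters are not in the window. The decamer is shown in capitals for SESN1, which rose, and AEN, which fell:
SESN1 (chr6:109008989-109009077, - strand): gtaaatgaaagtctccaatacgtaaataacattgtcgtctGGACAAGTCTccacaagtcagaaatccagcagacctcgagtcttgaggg
AEN (chr15:88621266-88621339, + strand): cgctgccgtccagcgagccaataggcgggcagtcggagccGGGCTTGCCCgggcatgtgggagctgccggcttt

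Transcription factors known to drive member genes without p53 were read from a list of 30, of which 29 were tested. After USF1 knockdown 12 fell, USF1 itself among them, 3 rose and 14 did not pass, with a list median of -0.04. Over all tested genes 18.7% fell and 22.0% rose. The growth-induced factor EGR1 read 10.50, 10.42 and 10.43 in the controls and 9.62, 9.66 and 9.59 after knockdown. It fell by 0.82 (SE 0.03, limma adjusted p = 3.14e-05), and its 6 bright probe sets ran from -0.95 to -0.37. CEBPB, a stress and differentiation factor, fell by 0.62 (SE 0.06), the stress factor ATF3 by 0.48 (SE 0.03) and MYC, which represses CDKN1A, by 0.37 (SE 0.03). The 3 bright probe sets of ATF3 ran from -0.48 to -0.05. The falls of all 4 had separate groups, as did the changes of 53.6% of all tested genes. This adds no support, since the 4 were named for their adjusted p from the same values. ATF4 and its target DDIT3, named here after their values were seen, fell by 0.29 and 0.26 (limma adjusted p = 4.61e-04 and 0.00424). In the UGT1A3 pair ATF4 differed by 0.01. Whether the level of any factor bears on a member was not tested. The factors that rose were STAT3 by 0.29, KLF4 by 0.28 and SMAD3 by 0.12. USF2, which binds the same E-box as USF1, changed by -0.02. The FOXO genes FOXO1, FOXO3 and FOXO4 changed by -0.08, 0.05 and -0.04 and E2F1 by 0.11, and these 4 did not pass. USF2, the FOXO genes and E2F1 were likewise named after their values were seen. RNA levels of factors do not give their activity.

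**Figure D3:**
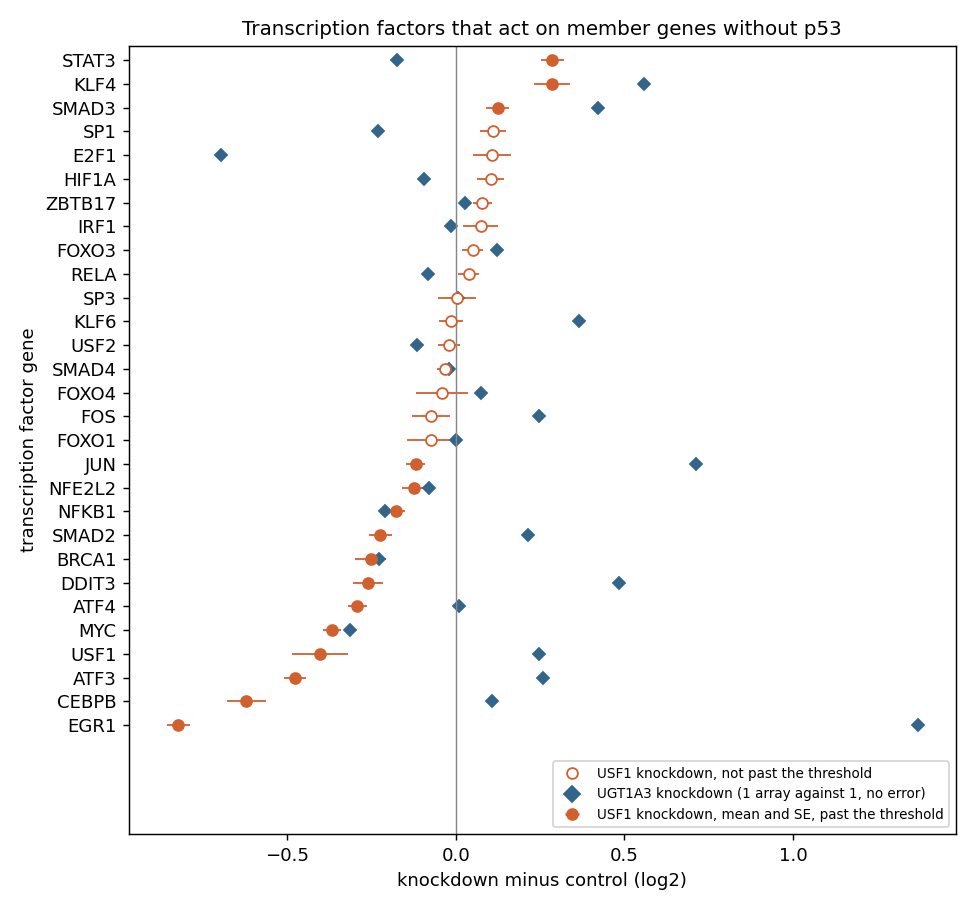
Knockdown minus control (x axis, log2) for the 29 measured factors (y axis), ordered by their change after USF1 knockdown. Circles with SE bars are the USF1 comparison, filled where it passed, and diamonds are the single UGT1A3 pair. EGR1 lies lowest after USF1 knockdown, at -0.82, and highest in the UGT1A3 pair, at 1.37.

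A further list held 37 p53 targets outside the members. Of these 29 were tested, 4 rose, 9 fell and 16 did not pass, where 22.0% of all tested genes rose and 18.7% fell, and their median was -0.02 against 0.01. ANKRA2, an ankyrin repeat protein, read 7.12, 7.20 and 7.18 in the controls and 6.08, 6.45 and 6.33 after knockdown, a fall of 0.88 (SE 0.09). The autophagy gene DRAM1 fell by 0.61 (SE 0.07) and SESN2, the sestrin that also responds to ATF4, by 0.59 (SE 0.05), whereas NINJ1 rose by 0.29 (SE 0.04). SESN1 and SESN2, relatives with similar roles, thus moved in opposite directions, by 0.60 and -0.59. Limma adjusted p-values of these 4 further targets were 2.40e-04 to 0.00146. The difference between the members and this list was not tested.

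Of 29 tested regulators and cofactors of p53, 6 rose, 5 fell and 18 did not pass, with a median of 0.0034. Over all tested genes 22.0% rose and 18.7% fell. HIPK2, a kinase that activates p53 and p73, read 11.95, 11.82 and 11.86 and then 11.33, 11.33 and 11.39. It fell by 0.53 (SE 0.04, limma adjusted p = 2.00e-04), with all 9 of its bright probe sets between -0.53 and -0.24. The deacetylase SIRT1 fell by 0.21, and the ubiquitin ligases RCHY1 and WWP1 rose by 0.34 and 0.24. For RCHY1 the second bright probe set gave -0.03. Cell cycle genes that p21 is known to lower through the DREAM complex were read beside CDKN1A. Of 19 tested, 4 rose, 1 fell and 14 did not pass, with a median of 0.05, beside the same 22.0% and 18.7% of all tested genes. MYBL2 rose by 0.39 (SE 0.04), CDC25C by 0.24, FOXM1 by 0.19 and CENPF by 0.12 (limma adjusted p = 7.42e-04 to 0.0177).

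In the UGT1A3 pair, 2 members were at least 1.5-fold higher in the knockdown array and none was at least 1.5-fold lower, out of 27 measured. With 1 array per group there was no replicate check and no p-value. Of all 11620 measured genes, 3.56% differed by that much, 2.15% upward and 1.41% downward. TP53INP1 read 7.26 on the control array and 8.24 on the knockdown array and so differed by 0.98. BBC3 read 7.10 and 7.77 and differed by 0.67, but its second probe set gave -0.03. With the mean of all probe sets no member reached 1.5-fold. The next largest differences were FAS at -0.42 (7.58 and 7.16), TRIAP1 at -0.42 (9.49 and 9.07) and CDKN1A at 0.39 (9.35 and 9.74). Both CDKN1A probe sets were higher, by 0.38 and 0.39. DDB2 (8.12 and 7.77), RRM2B (8.25 and 7.94), PHLDA3 (5.65 and 5.38), TP73 (5.52 and 5.30) and MDM2 (7.26 and 7.05) lay lower in the knockdown array by 0.21 to 0.35, and PPM1D (7.48 and 7.83), XPC (7.61 and 7.90), GADD45A (10.70 and 10.98) and TNFRSF10B (9.06 and 9.31) lay higher by 0.26 to 0.35. The bright probe sets of RRM2B, MDM2 and TP73 did not share a sign, running from -0.30 to 0.32, from -0.52 to 0.14 and from -0.44 to 0.18. The median was 0.11 over the members and 0.02 over all genes, and the median size of difference was 0.22 and 0.16.

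The sets do not share arrays, so the members could be set side by side. Of 27 genes measured in both, 16 had the same sign, 10 opposite signs, and MDM4 differed by 0 in the UGT1A3 pair. The share of all genes with the same sign was not computed, so these counts do not show that the knockdowns agree. Of the 10 that rose after USF1 knockdown, ZMAT3 alone was lower in the pair by its brightest probe set, at -0.17. CCNG1 was close to 0 there, at 0.04. The second probe sets of BAX and BBC3 were lower there too, at -0.13 and -0.03. TP53INP1 had the largest difference of the members in each, at 0.86 and 0.98. CD82 and SESN1 were much less apart in the UGT1A3 pair, at 0.25 (0.31 for the probe set used in the USF1 set) and 0.20. The members that fell after USF1 knockdown mostly did not lie lower in the pair: GADD45A differed by 0.28, PMAIP1 by 0.22 and POLK by 0.10, and AEN alone was lower, at -0.16. For MDM4 the brightest probe set of the pair read 6.39 on both arrays, and the probe set used in the USF1 set differed by 0.10. Such exact ties made up 4.67% of all probe sets in the UGT1A3 pair, against 0.239% to 0.418% between any 2 USF1 arrays, and the cause was not tested. Differences near 0 in the pair are therefore of limited meaning.

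**Figure D4:**
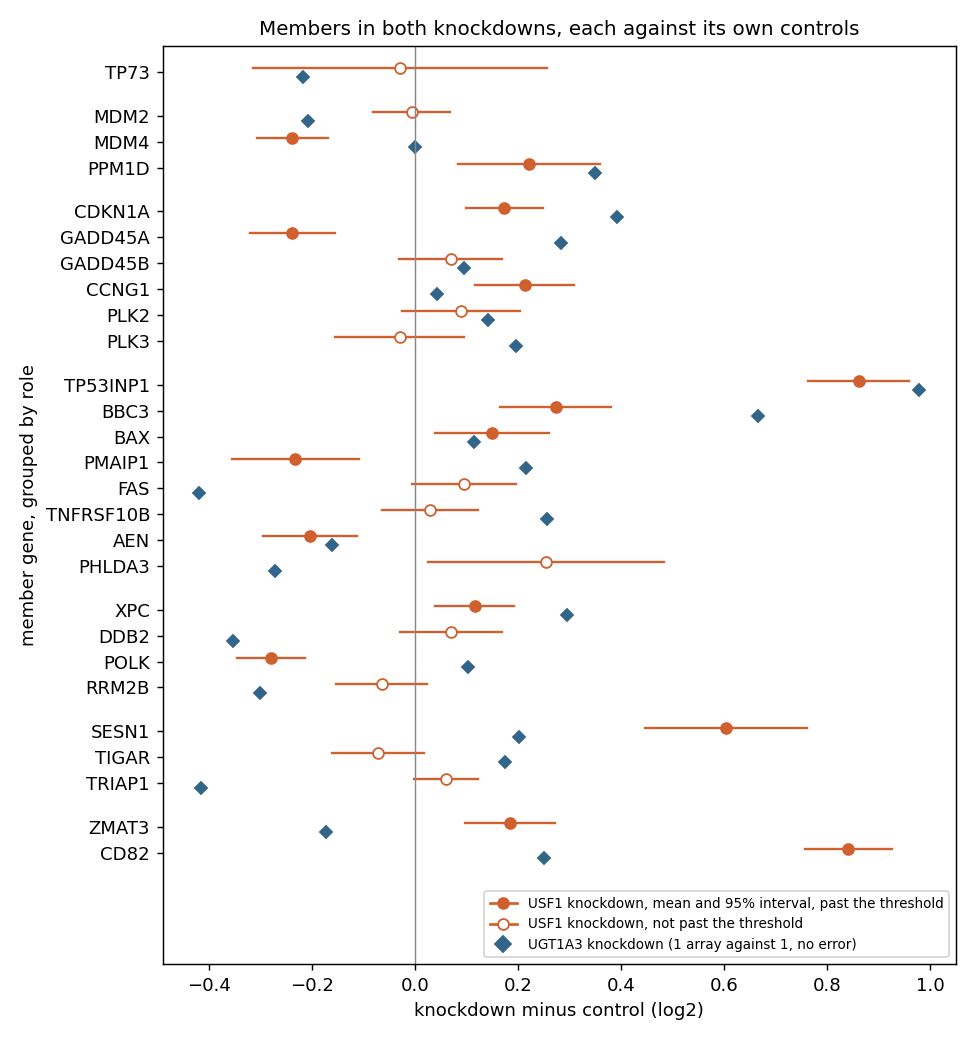
Knockdown minus control (x axis, log2) for the 27 measured members, grouped by role (y axis). Circles with 95% intervals are the USF1 comparison (3 arrays against 3), filled where the gene passed, and diamonds are the single UGT1A3 pair, which has no error. TP53INP1 lies at 0.86 and 0.98, while GADD45A and PMAIP1 lie below 0 after USF1 knockdown and above 0 in the pair.

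Several genes outside the member list also had opposite signs. EGR1 differed by 1.37 in the UGT1A3 pair, SESN2 by 0.77, ANKRA2 by 0.56 and DRAM1 by 0.50, each against a fall after USF1 knockdown, and DDIT3 by 0.48 against -0.26. MYC was lower in both, at -0.31 in the pair, and so was HIPK2, at -0.68. The 19 measured cell cycle genes of the p21 and DREAM list had a median of -0.30 in the pair, against 0.02 over all genes, with MYBL2 at -0.53 and FOXM1 at -0.54. The 2 genes of this list at least 1.5-fold lower were MCM5 at -0.77 and CDC20 at -0.62. E2F1, from the factor list, was lower too, at -0.70. The part of CDKN1A or of E2F1 in this was not tested. Whether these differences between the knockdowns exceed the spread of replicates was not tested, since the UGT1A3 pair has none.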

How the data were processed

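Biotin-labelled total RNA of H1299 cells was measured on 8 one-colour arrays. The authors deposited log2 intensities per probe set, a base inferred from their range. Per the submitters' processing notes MAS5 was among the tools, with no role or version. The sources used here do not give how arrays were scaled to each other. Of 49395 probe sets, 102 controls were left out. Platform annotation gave 44988 a single symbol, 1832 several and 2473 none, and 44961 probe sets were matched to RefSeq genes by Entrez number. A gene's value is that of its brightest probe set (by mean over the arrays compared), and a gene dimmer than the 40th percentile of probe set means was not tested. The USF1 groups were compared in R 4.3.3 by limma 3.58.1 (moderated linear model), two-sided, with Benjamini-Hochberg adjustment across every tested gene (or every bright probe set) and a threshold of 0.05. SE is the moderated standard error. The fit was tested on simulated data with independent normal errors and few changed genes. Such data do not resemble the broad response seen here, so the simulation does not vouch for the calls.

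All members are accounted for. From each pathway list the text names the 4 genes with the smallest adjusted p, plus USF1. From the factor list it also names the 3 that rose, and ATF4, DDIT3, USF2, the FOXO genes and E2F1, chosen after their values were seen. From the cell cycle list MCM5 and CDC20 are named as well, as the 2 at least 1.5-fold lower in the UGT1A3 pair. Members and lists were chosen with earlier results of these data known. Alternatives were quantile normalization, median centring, no dim limit, a limit raised to percentile 60, the mean of all probe sets, adding 16 units before the log, an intensity trend with a robust prior, a replicate block, and leaving out each array.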

Additional observations from a re-analysis of the deposited data

How the results depend on the processing

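The count of 10 members that rose and 5 that fell became 7 to 10 and 5 to 6 under the alternatives that kept all arrays, and 8 to 9 and 5 when an array was left out. With no dim limit BAX, PPM1D and XPC did not pass, and the count of member probe sets that rose was 13 in place of 22. It was 14 to 21 when an array was left out. With the mean of all probe sets the UGT1A3 pair held 0 members at least 1.5-fold higher in place of 2, and the changes of MDM2 and TIGAR turned to 0.0487 and 0.0296 (limma adjusted p = 0.433 and 0.658). When an array was left out, 4 genes that had not passed changed sign without passing: TP73 ran from -0.159 to 0.0768, MDM2 from -0.0277 to 0.00935, PLK3 from -0.078 to 0.0189 and TNFRSF10B from -0.00377 to 0.0466. Of 373 values of single members under these alternatives, 344 kept their direction and their side of the threshold, 18 no longer passed, 3 newly passed and 8 turned sign.

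With the replicate number as a block 9 members rose and 5 fell, and XPC alone did not pass (limma adjusted p = 0.0687). Deviations from the group means of arrays with the same number correlated at -0.10, 0.20 and 0.09. Control 1 correlated best with knockdown 3 (0.19), whereas control 2 and control 3 each correlated best with the knockdown array of their own number. These values do not settle whether arrays were paired by number. Low signal limits what can be said of TP73, PHLDA3 and SPATA18, and of the fall of USF1 itself.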
